A study of Mus musculus with 8 samples.

Results

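The histone genes of the Hist1 to Hist4 loci, most of them replication-dependent, were followed in a pair of mouse kidney cell lines. They were taken as the protein-coding rows of the expression table whose symbol begins with Hist1, Hist2, Hist3 or Hist4, which gave 67 of 55558 Ensembl gene rows, of 21896 that are protein-coding. They were chosen by symbol and biotype alone, and no measured value entered the rule, although the set was proposed with results of these data known. Of the 67 genes, 66 passed the filter on low counts and entered the test, and Hist1h2aa, a testis histone gene, was at 0 in all libraries. By type, 6 encode the linker histone H1, 18 H2A, 18 H2B, 12 H3 and 13 H4. By locus, 54 lie in Hist1, 10 in Hist2, 2 in Hist3 and 1 in Hist4.

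The nucleosome is built from the core histones H2A, H2B, H3 and H4, and H1 binds the DNA that links nucleosomes. The genes followed here lack introns in most cases and are transcribed mainly while DNA is replicated, and their mRNAs usually end in a stem-loop in place of a poly(A) tail, so that RNA libraries depleted of ribosomal RNA hold them while libraries selected for poly(A) lose most of them. Replacement histones such as H2A.Z and H3.3 are encoded elsewhere and are made throughout the cell cycle.

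RNA was sequenced in 3 libraries of mK4, labelled as metanephric mesenchyme that has differentiated toward epithelium, and in 3 libraries of mK3, labelled as uninduced metanephric mesenchyme. ATAC-seq, which marks open chromatin by transposition, was done on 1 library of each line. Both lines were labelled wild type and untreated, shared 1 serum-containing medium, and stand for 1 line each. The labels call the RNA libraries duplicates and do not say whether they came from separate cultures, so p-values speak only to variation among the sequenced libraries, possibly of technical origin. The total count per library was 137559391 to 152952351.

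The defining markers fitted the labels in part. Cdh6 and Cdh16, cadherins of renal epithelium, averaged 1668 and 84.2 CPM (counts scaled to library size) in mK4 and were at 0 in every mK3 library, and Col1a2 and Prrx1, of mesenchyme, averaged 0.221 and 0.190 CPM in mK4 and 981 and 736 CPM in mK3. Cdh1 and Krt8 stayed under 0.5 CPM in each library of mK4 and at 0 in mK3, Krt18 was at 0 in all libraries, and Epcam was at 0 in mK4 and reached 0.725 CPM in 1 mK3 library. Of 8 metanephric mesenchyme markers, of which 6 were tested, 3 were called higher in mK4 and 2 lower. Eya1, Pax2 and Sall1 averaged 187, 30.0 and 10.3 CPM in mK4 and 10.1, 0 and 0 CPM in mK3, against the label of mK3, while Six2 averaged 0 CPM in mK4 and 0.338 CPM in mK3 and Osr1 2.25 CPM in mK4 and 11.2 CPM in mK3. The mesenchymal gene Vim averaged 231 CPM in mK4 and 172 CPM in mK3 and was called higher in mK4. Gdnf, at 7.68 CPM in mK4 and 14.0 CPM in mK3, and Cdh2, at 569 CPM in mK4 and 493 CPM in mK3, were not called. The endothelial gene Cdh5, of a type neither label names, averaged 7.35 CPM in mK4 and 0 CPM in mK3 and was called higher. Pecam1, also endothelial, and the leukocyte gene Cd68 were not called, and the leukocyte gene Ptprc was not tested.

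Library 1 of mK3 stood apart for histone RNA. It was the lowest of its line for 62 of the 66 tested histone genes, with a median log2 difference of -0.61 from the other mK3 libraries. In the same library the median was -0.04 over 20 S phase genes and 0.00 over all tested genes. In mK4, library 3 was the lowest for 51 of 66, with a median of -0.15. What sets library 1 of mK3 apart was not tested, and results are given without it below.

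Histone genes took 3.39%, 3.68% and 3.16% of the gene counts in the mK4 libraries, against 2.01%, 2.95% and 3.18% in the mK3 libraries. The summed histone level was 33321, 35332 and 29979 CPM in mK4 (32877 ± 2704, SD, n = 3) and 19811, 30986 and 34244 CPM in mK3 (28347 ± 7570, SD, n = 3). The lines overlapped, with mK3 library 1 far below the rest, and the ratio of the means was 1.16. Without that library the log2 ratio of the means was 0.01. In bulk RNA, more cells in S phase and more histone RNA per cell cannot be told apart.

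Gene by gene, edgeR's quasi-likelihood test with Benjamini-Hochberg adjustment over all genes called 18 of the 66 tested histone genes higher in mK4 and 3 lower, and 45 were not called. Over all 20405 tested genes, 20.8% were called higher and 19.5% lower. Over the 13840 protein-coding genes among them the shares were 24.7% and 23.8%. The share called higher was therefore close to the background, and fewer histone genes were lower. The median log2 fold change, mK4 over mK3, was 0.35 over the histone genes and 0.02 over all tested genes. All 3 mK4 libraries lay above all 3 mK3 libraries for 27 histone genes (28.8% over all tested genes) and below for 3 (27.2%). Without mK3 library 1 the calls were 25 higher and 10 lower. The 20.8% and 19.5% belong to the main fit, and the share of all genes called is not given for other fits. With libraries scaled to their summed Hist1 counts, 10 were called higher and 4 lower. That scaling put the median log2 fold change of all tested genes at -0.33 and that of the histone genes at 0.06, and scaling by library size alone put them at 0.13 and 0.46.

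**Figure D1:**
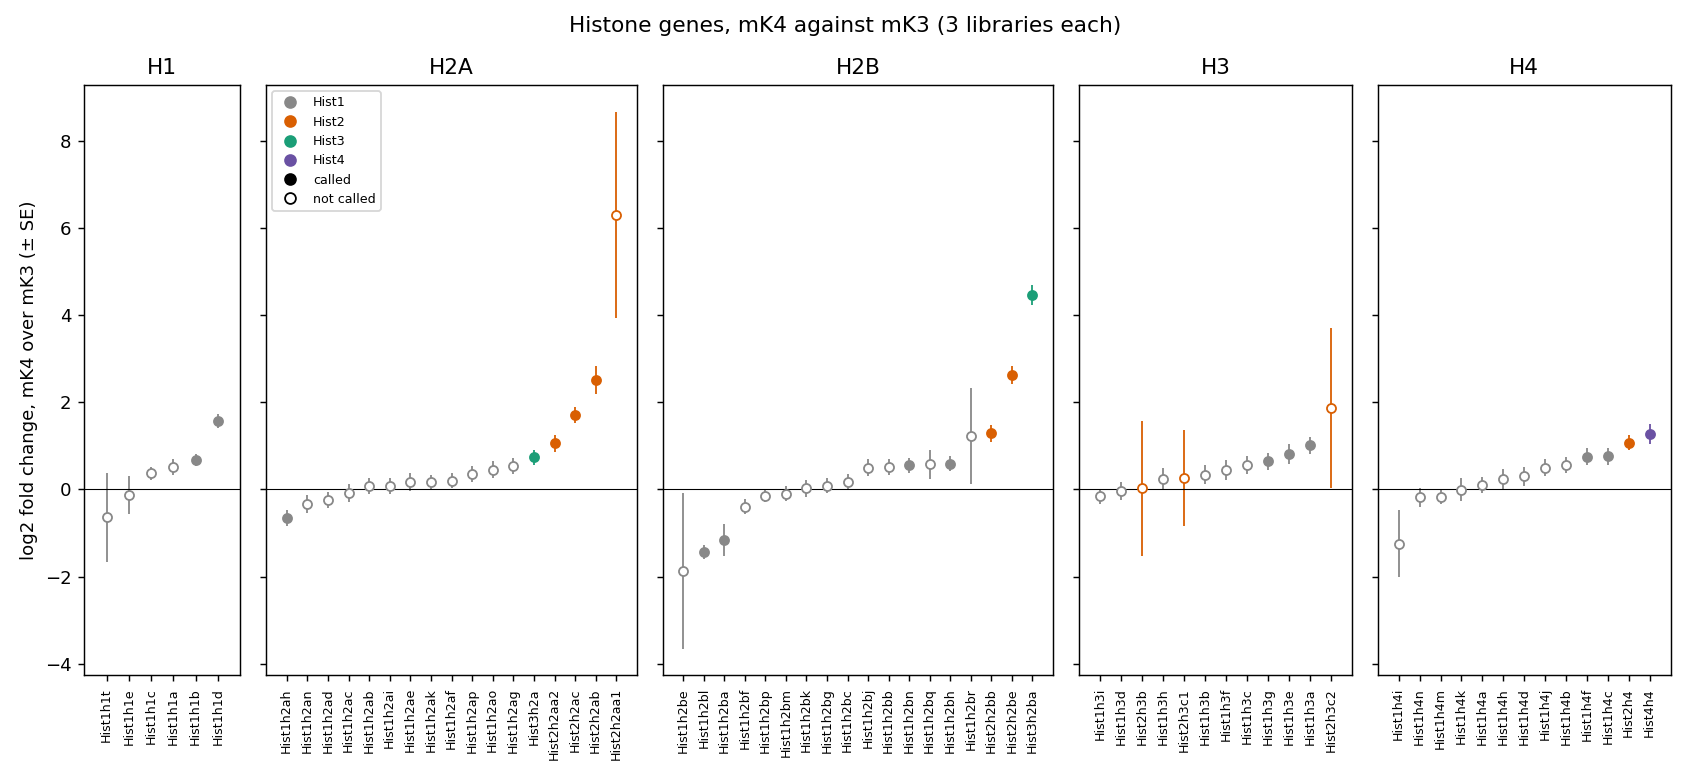
Log2 fold change, mK4 over mK3, of each tested histone gene with its standard error, in panels by histone type and coloured by locus, with filled points for called genes. The genes of Hist2, Hist3 and Hist4 lie above 0 (Hist2h3b fell below 0 in 6 alternatives and Hist2h3c1 in 3) while most of the Hist1 genes lie near it, with a median of 0.20.

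The loci differed. Hist1, the large cluster on chromosome 13, summed to 28589, 30669 and 25488 CPM in mK4 and 18388, 28794 and 31904 CPM in mK3, a ratio of 1.07 with overlapping libraries. Of its 53 tested genes 9 were called higher and 3 lower in mK4, and the median log2 fold change was 0.20. The shares over all tested genes were 20.8% and 19.5%, and over protein-coding genes 24.7% and 23.8%. The 13 genes outside Hist1 summed to 4733, 4663 and 4491 CPM in mK4 (4629 ± 125, SD, n = 3) and 1423, 2192 and 2340 CPM in mK3 (1985 ± 492, SD, n = 3). Every mK4 library was above every mK3 library, and the ratio of the means was 2.33. Of these 13 genes 9 were called higher, and all 13 fitted log2 fold changes were above 0, from 0.02 to 6.30 with a median of 1.29. The sign of Hist2h3b turned in 6 of 13 alternatives, down to -1.05, and that of Hist2h3c1 in 3, down to -0.28.

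The share of summed histone CPM that came from outside Hist1 is taken within a library, so that its total histone RNA cancels. It was 14.2%, 13.2% and 15.0% in the mK4 libraries (14.1 ± 0.894, SD, n = 3), against 7.18%, 7.07% and 6.83% in the mK3 libraries (7.03 ± 0.178, SD, n = 3). Library 1 of mK3, low in its sum, was level with the other mK3 libraries in this share. By locus, the mK4 over mK3 ratio was 2.34 for Hist2 on chromosome 3, 1.89 for Hist3 on chromosome 11 and 2.41 for the only Hist4 gene, on chromosome 6. Without mK3 library 1, 9 genes outside Hist1 were called higher, and with scaling to the summed Hist1 counts 8 were. No p is given for these sums, since the genes and loci were proposed with results of these data known.

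**Figure D2:**
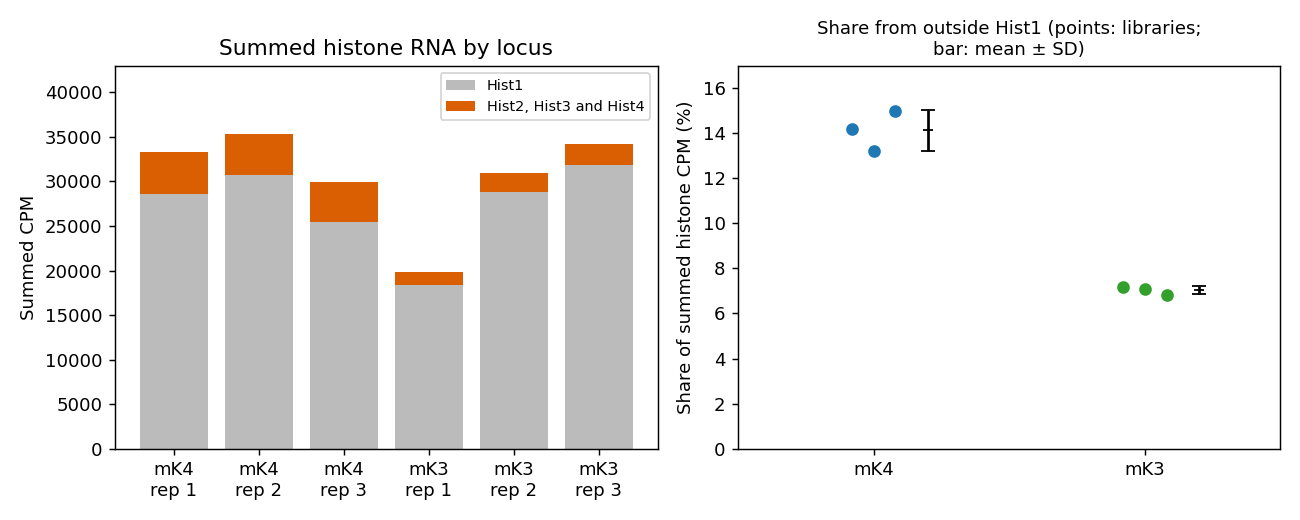
Left, summed CPM of the histone genes in each RNA library, split into Hist1 and the other loci. Right, the share from outside Hist1 in each library, with the mean and SD, which is 13.2% to 15.0% in mK4 and 6.83% to 7.18% in mK3.

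The H2B gene Hist3h2ba (chr11:58948911-58949372) had the largest fitted change among the called histone genes. It had 28.3, 25.1 and 24.5 CPM in mK4, against 0.842, 1.28 and 1.41 CPM in mK3. All mK4 libraries were far above all mK3 libraries. It was 22.1-fold higher in mK4 (log2 fold change 4.47, SE 0.24, adjusted p 5.45e-05 by edgeR's quasi-likelihood test). Its neighbour Hist3h2a, which encodes an H2A, had 181, 184 and 171 CPM in mK4 and 79.3, 112 and 130 CPM in mK3. Its libraries did not overlap either, and it was 1.66-fold higher (adjusted p 0.0189 by the same edgeR test), passing in 9 of 13 alternatives.

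In Hist2, the H2A genes Hist2h2ab and Hist2h2ac lie end to end. Hist2h2ab (chr3:96219885-96220354) had 24.0, 23.7 and 39.1 CPM in mK4, against 3.57, 4.86 and 6.81 CPM in mK3. Hist2h2ac (chr3:96220413-96220880) had 574, 548 and 553 CPM in mK4, against 125, 177 and 209 CPM in mK3. For neither gene did the lines overlap. Hist2h2ab was 5.70-fold higher (log2 2.51, adjusted p 0.00158) and Hist2h2ac 3.28-fold higher (log2 1.71, adjusted p 0.000758) by the edgeR test.

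The Hist2 H2B genes moved the same way. Hist2h2be had 5.08, 5.37 and 6.44 CPM in mK4, against 0.821, 0.990 and 0.902 CPM in mK3, and was 6.22-fold higher (adjusted p 0.000213, edgeR). Hist2h2bb had 1096, 1090 and 997 CPM in mK4, against 378, 346 and 580 CPM in mK3, and was 2.44-fold higher (adjusted p 0.0034, edgeR). The mK4 libraries of both genes stood close together and above every mK3 library. Hist2h2aa2, an H2A gene, averaged 758 ± 52.2 CPM in mK4 and 363 ± 96.8 CPM in mK3 (SD, n = 3 each, adjusted p 0.00658 by edgeR).

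The H4 genes outside Hist1 both rose, the core histone whose genes encode nearly or exactly the same protein. Hist4h4 had 947, 945 and 920 CPM in mK4, against 253, 435 and 478 CPM in mK3, and was 2.41-fold higher (log2 1.27, SE 0.23, adjusted p 0.00619 by edgeR). Hist2h4 had 580, 601 and 547 CPM in mK4, against 204, 308 and 308 CPM in mK3, and was 2.11-fold higher (adjusted p 0.0034 by edgeR). The mK3 spread in both came mostly from library 1. Without that library their log2 fold changes were 1.04 and 0.90.

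**Figure D3:**
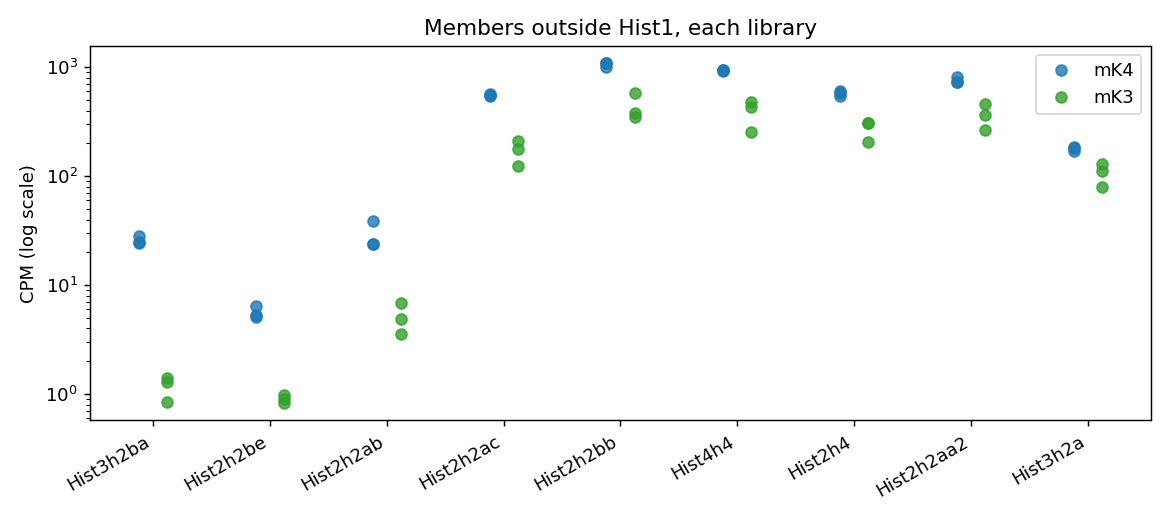
CPM on a log scale of the 9 genes outside Hist1 that were called higher, with each point a library, mK4 left of mK3. In none of them do the libraries of the lines overlap.

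The upstream sequence of 5 called genes, 3 from outside Hist1 with large changes, Hist1h1d and the lower Hist1h2bl, is shown with short promoter motifs marked, as RefSeq gives it for GRCm38.p6, which is mm10. Each run is the 200 bases before the annotated start, on the gene's strand. Capitals mark the TATA box letters TATAAA, the box CCAAT in any gene, the octamer ATTTGCAT in H2A and H2B genes and AAACACA in H1 genes, on either strand.
Hist3h2ba, chr11:58948711-58948910, plus strand: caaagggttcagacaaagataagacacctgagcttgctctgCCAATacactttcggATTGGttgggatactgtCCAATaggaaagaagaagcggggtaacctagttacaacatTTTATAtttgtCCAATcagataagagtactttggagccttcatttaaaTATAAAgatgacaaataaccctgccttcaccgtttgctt
Hist2h2ab, chr3:96219685-96219884, plus strand: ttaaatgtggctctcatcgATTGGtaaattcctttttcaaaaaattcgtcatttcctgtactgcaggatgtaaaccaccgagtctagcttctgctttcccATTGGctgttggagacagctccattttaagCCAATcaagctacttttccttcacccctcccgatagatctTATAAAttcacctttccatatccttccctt
Hist2h2ac, chr3:96220881-96221080, minus strand: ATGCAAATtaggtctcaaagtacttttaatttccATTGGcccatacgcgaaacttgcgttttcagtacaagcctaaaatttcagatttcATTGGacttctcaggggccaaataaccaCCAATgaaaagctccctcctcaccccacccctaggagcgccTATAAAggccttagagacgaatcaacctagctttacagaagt
Hist1h1d, chr13:23554832-23555031, plus strand: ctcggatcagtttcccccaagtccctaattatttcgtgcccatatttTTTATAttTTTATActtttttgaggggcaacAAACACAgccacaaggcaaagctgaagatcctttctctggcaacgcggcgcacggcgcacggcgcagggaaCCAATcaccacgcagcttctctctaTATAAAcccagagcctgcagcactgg
Hist1h2bl, chr13:21716184-21716383, minus strand: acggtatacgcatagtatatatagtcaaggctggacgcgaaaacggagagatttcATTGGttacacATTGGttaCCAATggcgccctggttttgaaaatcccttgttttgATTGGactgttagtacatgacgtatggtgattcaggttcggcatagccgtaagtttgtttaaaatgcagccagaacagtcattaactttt

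Among the linker histone genes, all 6 of which lie in Hist1, the mixture differed between the lines. Hist1h1d, one of the somatic H1 genes, had 280, 280 and 243 CPM in mK4, against 69.8, 101 and 99.6 CPM in mK3. It was 2.97-fold higher (log2 1.57, SE 0.16, adjusted p 0.000638 by edgeR's quasi-likelihood test), the largest fitted change in Hist1 among called genes that were higher. Its share of the summed H1 level was 21.7%, 24.1% and 22.2% in mK4, against 11.5%, 11.6% and 11.5% in mK3, where library 1 did not differ from the others. Hist1h1b averaged 81.1 ± 8.68 CPM in mK4 and 50.9 ± 7.02 CPM in mK3 (SD, n = 3 each, adjusted p 0.00885 by edgeR), yet its share of H1 was 6.85% in mK4 and 6.56% in mK3.

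Hist1h1a gave the largest H1 share in both lines, 44.8 ± 1.98% in mK4 and 47.3 ± 1.98% in mK3 (SD, n = 3 each), and did not pass the test (adjusted p 0.0632, edgeR). Hist1h1c gave 16.3% in mK4 and 19.1% in mK3. Hist1h1e gave 11.6%, 3.88% and 12.5% in the mK4 libraries, of which library 2 was far below the others, and 15.5 ± 0.681% in mK3. Hist1h1t, the testis H1 gene, stayed at or below 0.181 CPM in each library.

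**Figure D4:**
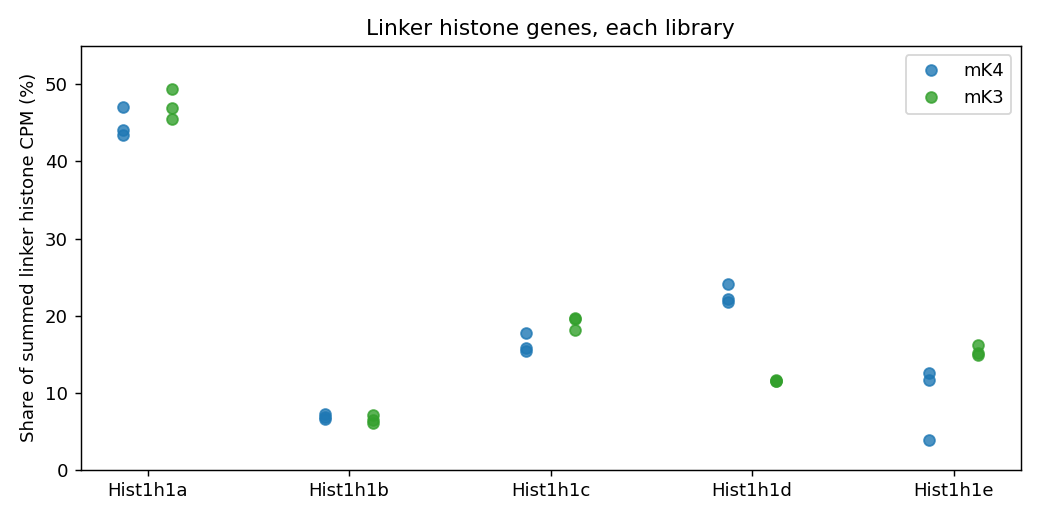
Share of the summed linker histone CPM from each H1 gene other than Hist1h1t, with each point a library, mK4 left of mK3. Hist1h1d lies at 21.7% to 24.1% in mK4 and at 11.5% to 11.6% in mK3.

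Core histone genes of Hist1 were called in H3, H4, H2A and H2B. In H3, Hist1h3a had 519, 563 and 512 CPM in mK4, against 188, 274 and 326 CPM in mK3, and was 2.02-fold higher (adjusted p 0.00799, edgeR). Hist1h3e averaged 480 ± 7.88 CPM in mK4 and 273 ± 91.9 CPM in mK3 (SD, n = 3 each, adjusted p 0.0341, edgeR), and Hist1h3g was also called. Hist1h3c and Hist1h3f averaged 605 and 843 CPM in mK4 and 407 and 618 CPM in mK3 and did not pass. In H4, Hist1h4c and Hist1h4f were called higher, at 1.69-fold for Hist1h4c (2816, 2631 and 2480 CPM in mK4, against 1079, 1780 and 1831 CPM in mK3, adjusted p 0.0271 by edgeR). Hist1h4n had 2045, 2157 and 1882 CPM in mK4, against 1516, 2561 and 2835 CPM in mK3, and was not called (adjusted p 0.57, edgeR), but was called lower at -0.41 without mK3 library 1 (adjusted p 0.0137, edgeR). Of 13 alternatives, Hist1h4c passed in 8, Hist1h4f and Hist1h3e in 7 and Hist1h3g in 6, and with the replicate block or any mK4 library left out none of the 4 passed. The H2B genes Hist1h2bh (115 CPM in mK4 and 76.3 CPM in mK3) and Hist1h2bn (311 CPM in mK4 and 212 CPM in mK3) were called higher and passed in 6 and 5.

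The 3 genes that were lower in mK4 all lie in Hist1. The H2B gene Hist1h2bl had 63.1, 63.4 and 58.1 CPM in mK4, against 127, 178 and 191 CPM in mK3. No mK4 library reached the lowest of mK3, and the gene was 2.69-fold lower in mK4 (log2 fold change -1.43, SE 0.16, adjusted p 0.000911 by edgeR). Hist1h2ah, an H2A gene, had 71.9, 78.5 and 61.8 CPM in mK4, against 84.2, 121 and 128 CPM in mK3 (log2 fold change -0.65, adjusted p 0.0302 by edgeR). Hist1h2ba, a testis H2B gene, was near the detection limit at 0.391 ± 0.0613 CPM in mK4 and 0.880 ± 0.189 CPM in mK3 (SD, n = 3 each, adjusted p 0.0459 by edgeR). Hist1h2bl passed in all 13 alternatives, Hist1h2ah in 7 and Hist1h2ba in 2.

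Many H2A and H2B genes start back to back and share the sequence between them. Genes without a RefSeq start on hand, among them Hist2h2be and Hist1h2bc, could not be paired. Among the other 62 genes there were 10 such pairs, with starts 164 to 281 bases apart. In the 9 with both partners tested, the median absolute difference in log2 fold change between partners was 0.19. The widest gap among these pairs was that of Hist1h2bl at -1.43 and its H2A partner Hist1h2ai at 0.08, whose starts are 229 bases apart. Next among these pairs came Hist1h2ap at 0.35 and Hist1h2br at 1.23, with Hist1h2br far apart between libraries of mK3. Hist1h2ah at -0.65 and Hist1h2bk at 0.03 followed. In the 3 blocks of Hist1, of 18, 5 and 30 tested genes, the median log2 fold change was 0.13, 0.03 and 0.27, and 1 gene in each block was called lower.

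By type over all loci, the summed level in mK4 over mK3 was 1.51 for H1, 1.37 for H2A, 0.893 for H2B, 1.43 for H3 and 1.23 for H4. The H2B sum was 7997, 10698 and 7069 CPM in mK4 and 6993, 10352 and 11494 CPM in mK3, with the lines overlapping. H2B gave 24.0%, 30.3% and 23.6% of summed histone CPM in mK4 and 35.3%, 33.4% and 33.6% in mK3. Within H2B, Hist1h2be had 24.8, 2962 and 18.9 CPM in mK4 and 2695, 4097 and 4152 CPM in mK3. Without it, a choice made after seeing the data, the H2B sum turned higher in mK4, at 7973, 7736 and 7050 CPM in mK4 and 4298, 6256 and 7342 CPM in mK3, with overlapping libraries and a ratio of 1.27. H4 gave 46.3 ± 2.51% in mK4 and 43.2 ± 1.37% in mK3 (SD, n = 3 each).

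Some histone genes differed more between libraries of 1 line than between the lines. With at least 500 counts in a library of a line, 4 of 64 genes differed over 5-fold within mK4 and 4 of 61 within mK3, 7 genes in all. Over all protein-coding genes with that many counts, 1.36% differed so within mK4 and 1.04% within mK3. The H2B gene Hist1h2be had 3382, 450990 and 2833 counts in mK4, against 387245, 542181 and 515581 counts in mK3. Library 2 of mK4 thus stood with mK3, and the fitted log2 fold change of -1.86 had an SE of 1.79 (adjusted p 0.461, edgeR). Without that library it was -7.38 and passed (adjusted p 0.000301, edgeR).

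The other 6 were Hist1h2br, Hist1h4i, Hist2h2aa1, Hist2h3b, Hist2h3c1 and Hist2h3c2. Hist2h3b had 25, 29126 and 29028 counts in mK4, against 15379, 14804 and 19864 counts in mK3. Hist2h3c2 had 64171, 41392 and 38384 counts in mK4, against 239, 35642 and 194 counts in mK3, and was called higher without mK3 library 2 (log2 7.69, adjusted p 0.000431, edgeR). The low library differed from gene to gene. Hist2h2aa1 had 21, 17 and 4234 counts in mK4, against 10, 13 and 24 counts in mK3. Histone genes include near-identical copies, the sources used here do not say how reads that match several copies were assigned, and the counts of single copies are uncertain.

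Summing copies narrowed the spread in part. The H3 genes Hist2h3b, Hist2h3c1 and Hist2h3c2 together had 479, 510 and 478 CPM in mK4 (489 ± 17.9, SD, n = 3), against 114, 442 and 167 CPM in mK3 (241 ± 176, SD, n = 3). In this grouping the mK4 libraries became level with each other and the mK3 libraries did not. Hist2h3c1 and Hist2h3c2 alone summed to 479, 319 and 286 CPM in mK4 and 6.59, 330 and 6.96 CPM in mK3, level in neither line. No alignment of the copies was made to choose a grouping. Hist2h2aa1 and Hist2h2aa2 together had 818, 730 and 754 CPM in mK4 and 265, 365 and 459 CPM in mK3, a ratio of 2.11. Hist1h2bq and Hist1h2br, whose 300-base promoter windows are identical, together had 1249, 1203 and 1129 CPM in mK4 and 274, 424 and 1277 CPM in mK3, so that library 3 of mK3 stood with mK4.
Hist1h2bq, chr13:21810200-21810399, minus strand, the same letters as Hist1h2br, chr13:21833543-21833742, plus strand: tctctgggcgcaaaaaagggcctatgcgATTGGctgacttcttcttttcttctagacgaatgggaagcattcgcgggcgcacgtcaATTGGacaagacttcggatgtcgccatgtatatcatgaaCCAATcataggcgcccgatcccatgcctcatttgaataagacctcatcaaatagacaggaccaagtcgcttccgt
Without the 7 genes, a choice made after seeing their values, the summed histone level in mK4 over mK3 was 1.30. The 9 genes then left outside Hist1 were those called higher. The 4 left out there were exactly those not called, so this restates the 9 of 13 and adds nothing to it.

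**Figure D5:**
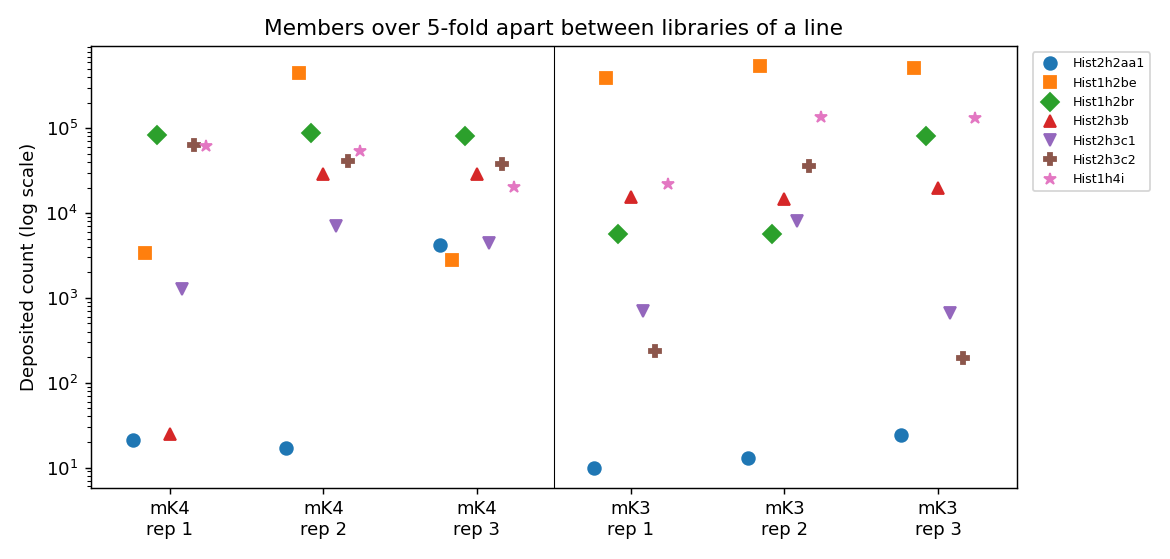
Deposited counts on a log scale of the 7 histone genes that differed over 5-fold between libraries of a line, with 1 symbol per gene. Hist1h2be is low in mK4 libraries 1 and 3 and high in the other 4 libraries, and Hist2h3c2 is low in mK3 libraries 1 and 3.

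Levels between genes were compared per kilobase of RefSeq span for the 61 genes with a span of at most 1000 bases. Among these, H4 genes led in both lines. The limit left out abundant H2B genes with long spans. They include Hist1h2bc, at 2053 CPM in mK4 and 1819 CPM in mK3, and Hist1h2be, at 1002 CPM in mK4 and 3648 CPM in mK3. Hist1h4c was first in mK4 at 7048 ± 448 CPM per kb and second in mK3 at 4168 ± 1120 CPM per kb, and Hist1h4n was second in mK4 at 4995 ± 340 and first in mK3 at 5675 ± 1714 CPM per kb (SD, n = 3 each). In mK4, Hist1h4n and Hist1h4f at 4945 ± 530 CPM per kb did not differ beyond their spread, nor did neighbours in the order among the first 5 genes of mK3. Hist2h2bb ranked 6 in mK4 and 13 in mK3, and Hist4h4 ranked 7 in mK4 and 12 in mK3.

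The promoter windows of 300 bases, from 250 before to 50 after the start, were on hand for 62 of the 67 genes. CCAAT was in 53 of 62 (85.5%), against 41.1% of all 27025 gene windows, and in every H1, H2A, H2B and H3 window but only 3 of 12 H4 windows. TATAAA was in 56.5%, against 15.7%. The octamer ATTTGCAT was in 7 of 18 H2A and 7 of 16 H2B windows and in no H1, H3 or H4 window, against 1.97% of all genes. AAACACA was in 5 of 6 H1 windows, against 8.22%. Genes called higher and genes not called held CCAAT in 86.7% and 83.7%, the octamer in 20.0% and 18.6% and TATAAA in 46.7% and 58.1%. Outside Hist1, 4 of 11 windows held TATAAA, although the 3 printed from there all do. Both strands were searched, and a match is a description of letters.

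Open chromatin was compared by the authors' peak lists, which hold 34756 peaks in mK4 and 22516 in mK3, with no test since each line had 1 ATAC library. A peak lay within 1 kb of the start of 42 of 62 histone genes (67.7%) in mK4 and 37 of 62 (59.7%) in mK3, against 45.8% and 41.6% of 17492 protein-coding genes. At 35 starts both lines had a peak, at 7 only mK4, at 2 only mK3 and at 18 neither. Each start was counted by itself, though neighbours such as Hist1h2ah and Hist1h2bk shared a peak, so these starts are not independent. Hist1h2bq and Hist1h2br, with identical promoter windows, had no peak in either list. Whether ATAC reads that match several copies were lost there was not tested. In Hist2 a peak was at 7 of 8 starts in mK4 and 5 of 8 in mK3. Of the 18 genes called higher, 15 had a start on hand, and 12 of these had a peak in mK4 and 11 in mK3. Of 43 genes not called, 28 had a peak in mK4 (65.1%) and 24 in mK3 (55.8%).

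Among the called genes with the largest changes, Hist2h2be had no RefSeq start on hand and was not assessed. Hist3h2ba and Hist1h1d had no peak within 1 kb in either list. The starts of Hist2h2ab and Hist2h2ac shared a peak with a fold over background of 4.60 in mK4 and 3.47 in mK3, by the authors' peak caller, and Hist4h4 had one of 4.53 in mK4 and 3.00 in mK3. Hist1h2bl, lower in mK4, shared one of 5.47 in mK4 and 6.75 in mK3 with its partner Hist1h2ai, which was not called. Hist1h2ah, also lower in mK4, went the other way, with a peak fold of 9.44 in mK4 and 5.48 in mK3. Its partner Hist1h2bk, not called, shared that peak. These folds describe each list by itself, whose medians were 4.72 in mK4 and 4.25 in mK3.

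Other genes of histone supply are given beside the 20.8% called higher and 19.5% called lower over all tested genes. Of 20 genes for histone mRNA transcription and 3' end processing, 1 was called higher and 5 lower in mK4, the lower count being near that background. Slbp, whose protein binds the histone stem-loop, had 36.1, 35.4 and 30.5 CPM in mK4 and 49.7, 58.8 and 56.3 CPM in mK3 (adjusted p 0.00339, edgeR). Npat, the activator of histone genes downstream of cyclin E and CDK2, had 125, 121 and 103 CPM in mK4 and 167, 176 and 160 CPM in mK3 (adjusted p 0.0055, edgeR). Both were lower in every mK4 library than in every mK3 library. Cpsf2 and Ncbp1, of 3' end cleavage and the cap-binding complex, were lower at 39.7 and 112 CPM in mK4 and 85.9 and 184 CPM in mK3, and Cstf2, a cleavage factor, was higher at 121 CPM in mK4 and 56.9 CPM in mK3.

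Of 20 S phase genes 1 was higher and 6 were lower, against 20.8% and 19.5% over all genes, with a median log2 fold change of -0.19. Pold1, the catalytic subunit of DNA polymerase delta, averaged 37.8 CPM in mK4 and 21.5 CPM in mK3, and Pola1, of DNA polymerase alpha, 134 CPM in mK4 and 193 CPM in mK3. Of 11 histone chaperones 3 were higher and 3 lower, and of 11 replacement histones 2 were higher and 2 lower, shares near that background. H2afz, which encodes H2A.Z, had 255, 252 and 232 CPM in mK4 and 87.0, 153 and 160 CPM in mK3 (adjusted p 0.0241, edgeR). H2afy2, a macroH2A gene, averaged 59.7 ± 7.16 CPM in mK4 and 4.28 ± 1.08 CPM in mK3 (SD, n = 3 each, adjusted p 9.21e-05, edgeR).

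H1f0, a replacement linker histone associated with resting and differentiated cells, averaged 70.7 ± 3.11 CPM in mK4 and 93.1 ± 6.79 CPM in mK3 (SD, n = 3 each, adjusted p 0.00975, edgeR), in the direction opposite to Hist1h1d. H1fx was called lower at 3, 1 and 0 counts in mK4 and 51, 42 and 28 counts in mK3. H3f3b, which encodes H3.3, averaged 139 CPM in mK4 and 152 CPM in mK3 and was not called (adjusted p 0.305, edgeR).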

How the data were processed

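Deposited whole-number read counts per gene, not normalized, were used for 3 mK4 and 3 mK3 RNA libraries, with 55558 gene rows fitted and miRNA and circular RNA rows kept out. Per the submitters' processing notes the tools include STAR 2.7.10a, HTSeq 2.0.2, Bowtie2 and MACS3, with mm10; the sources used here do not say which made which file, whether counting used strand or how reads matching several copies were treated. The authors' deposited peak lists give a score, a fold over background (a ratio) and −log10 p and q values per peak, for 1 ATAC library per line; only position, fold and −log10 q were used.

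Counts were fitted in edgeR 4.0.16 (R 4.3.3) (filterByExpr, TMM factors, robust quasi-likelihood F test of mK4 over mK3), adjusted by Benjamini-Hochberg over 20405 genes, with calls at 0.05. CPM used TMM library sizes. Only the edgeR gene test and the CPM scaling were tried on simulated counts, which held no outlying library. Alternatives were RLE factors, no scaling, no filter, protein-coding rows alone, DESeq2 1.42.0, a replicate block, each library left out, and for peaks a stricter −log10 q of 10, a 250-base window or overlap with the start itself. An exact test of 3 against 3 libraries cannot go below 0.1, so none is quoted, and sums over histone genes carry no p. Gene positions and promoter windows came from RefSeq for GRCm38.p6, matched by symbol or synonym for all 67 genes, 66 to a single entry; promoter windows were on hand for 62. Starts of divergent pairs lay within 500 bases, and Hist1 blocks were parted by gaps over 200 kb. Named genes were, per histone type, the 2 with the highest mean CPM and up to 2 called per direction with the smallest adjusted p, and all tested genes of Hist2, Hist3 and Hist4; Hist1h1c, Hist1h1e, Hist1h1t, the wide-span genes, Hist1h2bq, Hist1h2ai, Hist1h2ap, Hist1h2bk, Hist1h2bh, Hist1h2bn, Hist1h3g and Hist1h4f were added after their values were seen. The histone genes and companion lists were chosen with earlier results of these data known.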

Additional observations from a re-analysis of the deposited data

Results flagged for a closer look

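Of 70 rows with a histone symbol, 3 are pseudogenes and lay outside the comparison, and each gave a signal in both lines. Hist1h2al averaged 5.46 CPM in mK4 and 167 CPM in mK3, 30.6-fold lower in mK4 (adjusted p 3.15e-05, edgeR's quasi-likelihood test). Hist1h2aj averaged 8.80 CPM in mK4 and 20.0 CPM in mK3 and was lower (adjusted p 0.00542, edgeR). Hist3h2bb-ps averaged 60.9 CPM in mK4 and 20.7 CPM in mK3 and was higher (adjusted p 0.00137, edgeR), as were both protein-coding genes of Hist3. Whether reads of near-identical genes entered these counts was not tested.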

How the results depend on the processing

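The labels do not say whether the numbers of the libraries pair them. Over all tested genes, deviations of same-numbered libraries from their line means correlated at -0.024, 0.011 and 0.011. A correlation over all genes cannot exclude a pairing that touches only some of them. With a replicate block 12 histone genes were higher and 1 lower. With each library left out, the number called higher was 11 to 25 and the number called lower 1 to 10, the highest of both without mK3 library 1. The median log2 fold change was then 0.17 to 0.49 and the summed log2 ratio 0.01 to 0.37. Of settings that kept all libraries, RLE factors gave 18 higher and 3 lower, no scaling 27 and 2, no filter 15 and 2, protein-coding rows alone 22 and 2, and DESeq2 25 and 3. Scaling to the summed Hist1 counts, chosen after seeing the data, gave 10 and 4. The share of all genes called in each setting is not given here, so these counts stand without a background. Genes outside Hist1 called higher numbered 8 or 9 in each of the 13 alternatives, and none was called lower.

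Called in all 13 alternatives were Hist1h1d, Hist1h2bl, Hist1h3a, Hist2h2aa2, Hist2h2ab, Hist2h2ac, Hist2h2bb, Hist2h2be, Hist2h4, Hist3h2ba and Hist4h4. Hist1h1b passed in 12, Hist3h2a in 9, Hist1h4c in 8, Hist1h3e and Hist1h2ah in 7 and Hist1h2ba in 2. Of the 66 tested genes 19 changed sign in some alternative, all among the 45 not called. Of those named by rule, with each library left out Hist2h3b ran to 0.61, Hist2h3c1 to 2.47, Hist1h2ab to 0.23 and Hist1h2bc to 0.27 at most. Hist2h3b went to -1.05 with the block, -0.37 and -0.40 without mK4 library 2 and 3, -0.08 and -0.05 without mK3 library 1 and 2, and -0.25 with Hist1 scaling. Hist2h3c1 went to -0.28 without mK4 library 2, -0.21 without mK3 library 1 and -0.21 without mK3 library 3. Hist1h2ab went to -0.11 and Hist1h2bc to -0.002 without mK3 library 1, and to -0.21 and -0.11 with Hist1 scaling. The cause was not tested.

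Without Hist1h2be, chosen after seeing the data, the summed H2B log2 ratio was 0.35 in place of -0.16. With peaks of −log10 q of at least 10 alone, 31 histone gene starts had a peak in mK4 and 22 in mK3. The share of all protein-coding genes at that limit is not given here, so these counts are not compared with other genes. With 3 libraries per line the spread of mK3 limits what can be called.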
